A study of Caenorhabditis elegans with 12 samples.

Results

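The *lipl* genes of *C. elegans* encode lipases related to human lysosomal acid lipase, and their levels are described here across wild-type worms and 3 strains with mutations in mitochondrial redox enzymes. Members were chosen by symbol, *lipl-1* to *lipl-8*, which gave 8 genes of the 46904 gene identifiers in the count files. Of these, 7 passed the filter on low counts and were among the 15004 genes tested, and *lipl-8* did not.

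RNA of whole young adult worms was sequenced in 12 libraries, 3 for each of 4 strains. The *gsr-1a trxr-2* double mutant carried both *gsr-1 (syb266 mito)* and *trxr-2 (tm2047)*, each single mutant carried 1 of these alleles, and the wild type (N2) carried neither. The *syb266* allele is a CRISPR-Cas9 deletion of the first exon of *gsr-1*, which takes away the mitochondrial form of glutathione reductase and leaves the cytosolic form, and *tm2047* is a null allele of *trxr-2*, the mitochondrial thioredoxin reductase. The study describes the RNA-seq data as coming from independent experiments with biological replicates, and the labels number the libraries of a strain without saying which experiment each came from.

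Lysosomal lipases free fatty acids from neutral lipids that reach the lysosome, for example by autophagy of lipid droplets. In *C. elegans*, several of them rise when food is withdrawn: the transcription factor MXL-3 holds their transcription down in fed worms and HLH-30, the worm TFEB, drives it in fasted worms. LIPL-4 is known from long-lived strains, in which a lipid signal made by it is carried from the lysosome to the nucleus by the fatty acid binding protein LBP-8 and read there by the nuclear receptors NHR-49 and NHR-80.

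The libraries held 12114187 to 19688212 counts, with a median of 16360615. The *trxr-2* gene had 2 counts in all over the 3 double mutant libraries and 2 over the 3 *trxr-2* libraries, against 583 over the *gsr-1a* and 706 over the wild-type libraries. The *gsr-1* gene averaged 258 ± 6.98 CPM (counts per 1000000, with library sizes scaled by TMM) in the double mutant, 262 ± 9.79 CPM in *gsr-1a*, 277 ± 13.4 CPM in *trxr-2* and 286 ± 48.9 CPM in wild type (SD, n = 3 each). Its count does not check the *syb266* labels, because the cytosolic form is still made. Replicate 1 of *trxr-2* and replicate 1 of wild type stood apart in their share of yolk protein genes. Yolk protein genes (*vit-1* to *vit-6*) took 1.79% of the counts of *trxr-2* replicate 1, against 6.78% and 5.36% of replicates 2 and 3 of that strain. Their share was 0.342% in wild-type replicate 1, against 4.73% and 4.51% in replicates 2 and 3. Results that turn on either library are given with and without it.

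The 8 genes differed far more in level than any of them differed between strains. Of all counts assigned to *lipl* genes in the 12 libraries, 85.7% belonged to *lipl-5*, whose product has been studied as a lipase of the fasted intestine. Per kilobase of exon, *lipl-5* had a median of 157 CPM over the 12 libraries and *lipl-7* had 17.5 CPM. The next 3 genes lay close together, with 1.47 CPM per kilobase for *lipl-2*, 1.33 for *lipl-3* and 1.28 for *lipl-1*, and *lipl-6* and *lipl-4* were lowest of those detected, at 0.435 and 0.395 CPM per kilobase. In wild type alone, *lipl-5* ranged over 124 to 177 CPM per kilobase and *lipl-7* over 17.4 to 21.4, without overlap with each other or with any other member. The wild-type ranges of *lipl-1* (0.163 to 1.43), *lipl-2* (0.806 to 2.06) and *lipl-3* (1.14 to 2.33) overlapped, as did those of *lipl-4* (0.382 to 0.760) and *lipl-6* (0.390 to 0.498), so the order within each of these groups lay within the spread. Counts were made over whole genes, introns included. With the gene span as length in place of exons, *lipl-5* and *lipl-7* still led with medians of 83.3 and 8.78 CPM per kilobase, while *lipl-1* (0.982) stood above *lipl-3* (0.703) and *lipl-4* (0.307) above *lipl-6* (0.292).

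By position (WBcel235), 7 of the 8 genes lie on chromosome V and *lipl-7* on chromosome IV. The spans in the files are V:385713-388090 on the plus strand for *lipl-5* and IV:10239278-10241859 on the minus strand for *lipl-7*. The 3 genes of similar level lie apart on chromosome V, *lipl-1* at 12919952-12921692 and *lipl-2* at 9791567-9793234 on the plus strand and *lipl-3* at 521702-524218 on the minus strand. The spans of *lipl-4* (V:6550171-6551817, plus strand), *lipl-6* (V:6931539-6934306, minus strand) and *lipl-8* (V:14745684-14748708, minus strand) complete the family. No gene on the same strand overlaps any of them, and counting used the strand.

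No member passed the test in any comparison of strains. By edgeR's quasi-likelihood test at an adjusted p under 0.05, 0 of the 7 genes tested were called in the double mutant against wild type, where 18.8% of all genes tested were called. The count was also 0 in *gsr-1a* against wild type (0.0267% of all genes called) and in *trxr-2* against wild type (0.0666%). Likewise 0 were called in the double mutant against *gsr-1a* (3.57%), in the double mutant against *trxr-2* (11.6%) and for the interaction of both mutations (0.766%). DESeq2 also called 0 of the 7 in each of these comparisons, in the same order against 23.5%, 0.285%, 0.146%, 9.37%, 13.9% and 2.63% of all genes. At an unadjusted p under 0.05 by edgeR, 0 of 7 passed in double mutant against wild type (32.8% of all genes), *gsr-1a* against wild type (8.26%), *trxr-2* against wild type (5.85%), double mutant against *gsr-1a* (20.7%) and the interaction (11.1%). In the double mutant against *trxr-2*, 1 of 7 passed, against 19.9% of all genes: *lipl-3*, described below with the library on which it rests. The median log2 fold change of the 7 genes was -0.09 in the double mutant against wild type, where all genes tested had a median of 0.03. It was 0.03 in *gsr-1a* against wild type (all genes 0.00), 0.19 in *trxr-2* against wild type (all genes -0.04) and 0.01 in the double mutant against *gsr-1a* (all genes 0.01). It was -0.68 in the double mutant against *trxr-2* (all genes 0.01) and -1.30 for the interaction (all genes 0.02). Without *trxr-2* replicate 1, the 3 medians that involve that strain were -0.32 in *trxr-2* against wild type (all genes -0.14), 0.18 in the double mutant against *trxr-2* (all genes 0.06) and -0.07 for the interaction (all genes 0.12), a fit added after the data had been seen.

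**Figure D1:**
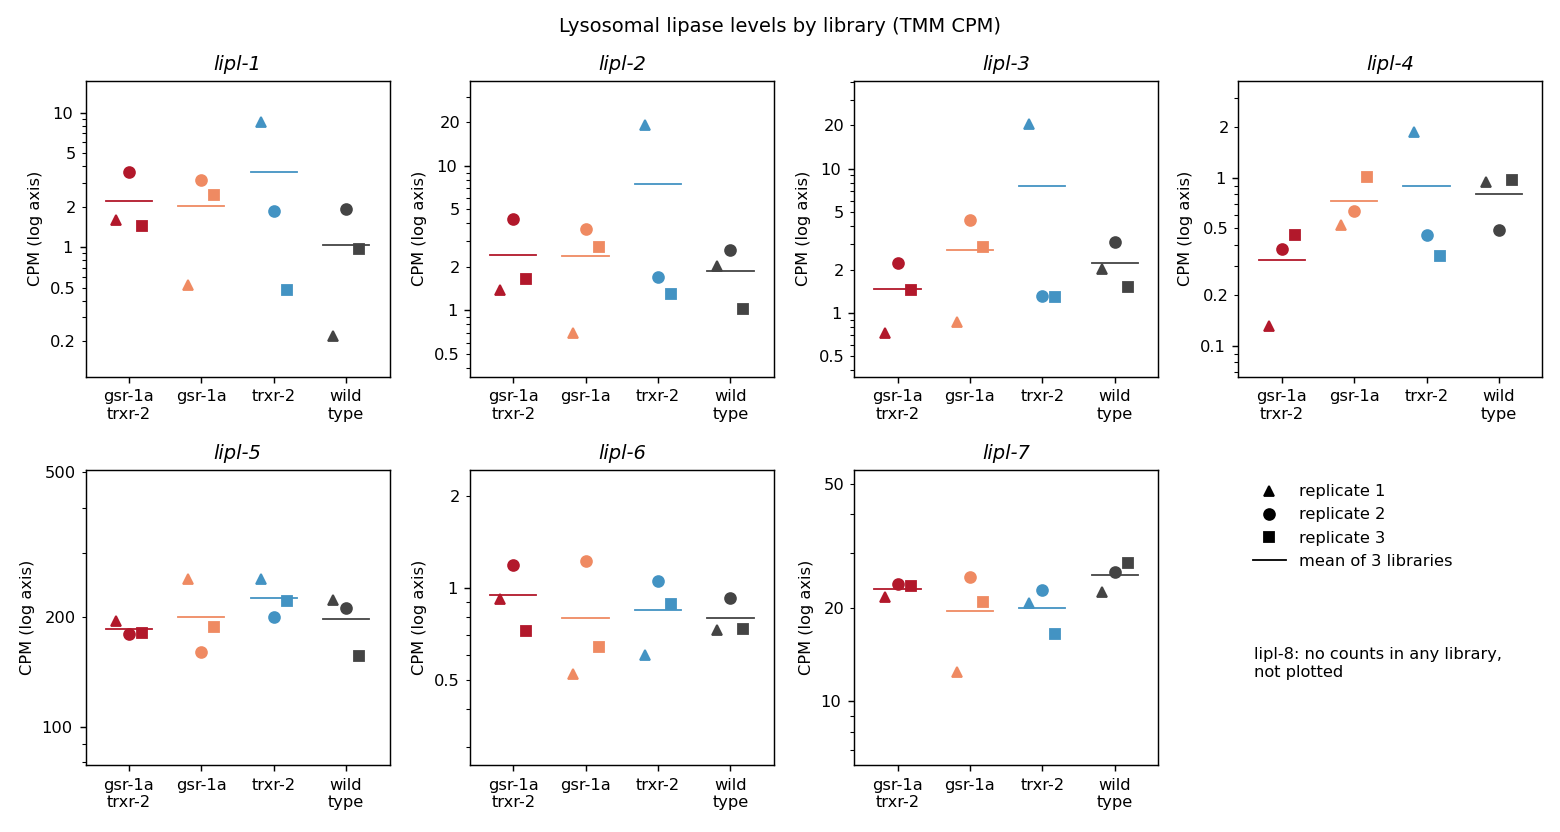
Level of each *lipl* gene in each library, in TMM CPM on a log axis, by strain; marks give the replicate number and lines the mean of 3 libraries. The strains overlap for most genes, *lipl-5* stays within 157 to 254 CPM, and *trxr-2* replicate 1 is the highest library for *lipl-1*, *lipl-2*, *lipl-3* and *lipl-4*.

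The 2 abundant members were measured most closely. *lipl-5* had 196, 180 and 181 CPM in the double mutant (replicates 1, 2 and 3), 254, 160 and 188 CPM in *gsr-1a*, 254, 200 and 222 CPM in *trxr-2*, and 223, 212 and 157 CPM in wild type. All double mutant values lay inside the wild-type range, and the whole family's largest member varied by no more than 1.62-fold over the 12 libraries. Its log2 fold change was -0.09 in the double mutant against wild type (SE 0.18, adjusted p = 0.772, edgeR), and the 95% interval of the fold ran from 0.713 to 1.24. In *gsr-1a* against wild type the interval was 0.771 to 1.34 and in *trxr-2* against wild type 0.865 to 1.51. Every double mutant library had less *lipl-5* than every *trxr-2* library, as was so for 10.1% of all genes tested, but the difference, -0.28 on the log2 scale (SE 0.18), did not pass the test (adjusted p = 0.464, edgeR).

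*lipl-7* had 21.6, 23.9 and 23.4 CPM in the double mutant, 12.5, 25.1 and 20.9 CPM in *gsr-1a*, 20.7, 22.9 and 16.4 CPM in *trxr-2*, and 22.5, 26.1 and 27.8 CPM in wild type. The lowest value was that of *gsr-1a* replicate 1, and the ranges of all 3 mutant strains overlapped that of wild type. The log2 fold changes against wild type were -0.15 in the double mutant (95% interval -0.62 to 0.32), -0.38 in *gsr-1a* (-0.85 to 0.09) and -0.35 in *trxr-2* (-0.82 to 0.12). The value in *gsr-1a* was -0.14 without *gsr-1a* replicate 1 and -0.60 without *gsr-1a* replicate 2. Between libraries of the same number, *lipl-7* was lower in *gsr-1a* than in wild type in 3 of 3 pairs, as were 20.3% of all genes tested, and lower in *trxr-2* than in wild type in 3 of 3 pairs (22.4% of all genes). With the replicate number as a block the values were -0.41 in *gsr-1a* (95% interval -0.83 to 0.02, adjusted p = 0.466, edgeR) and -0.35 in *trxr-2* (-0.77 to 0.08, adjusted p = 0.665), and neither passed.

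*lipl-1*, *lipl-2* and *lipl-3*, the members tied most closely to fasting, were low in most libraries and high in 1. *lipl-1* had 1.58, 3.63 and 1.44 CPM in the double mutant, 0.522, 3.13 and 2.45 CPM in *gsr-1a*, 8.57, 1.84 and 0.477 CPM in *trxr-2*, and 0.218, 1.91 and 0.974 CPM in wild type. *lipl-2* had 1.38, 4.28 and 1.64 CPM in the double mutant, 0.697, 3.66 and 2.77 CPM in *gsr-1a*, 19.3, 1.71 and 1.30 CPM in *trxr-2*, and 2.03, 2.61 and 1.02 CPM in wild type. *lipl-3* had 0.724, 2.22 and 1.44 CPM in the double mutant, 0.871, 4.40 and 2.88 CPM in *gsr-1a*, 20.2, 1.31 and 1.30 CPM in *trxr-2*, and 2.03, 3.1 and 1.51 CPM in wild type. For all 3 genes *trxr-2* replicate 1 was the highest of the 12 libraries, with 2.36, 4.52 and 4.59 times the level of the second highest. The counts behind these values were 114, 257 and 269 in that library, while the lowest library of *lipl-1*, wild-type replicate 1, held 3 counts.

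With all libraries, the log2 fold change in *trxr-2* against wild type was 1.75 for *lipl-1* (SE 0.92, adjusted p = 0.839, edgeR), 1.97 for *lipl-2* (SE 0.93, adjusted p = 0.836) and 1.77 for *lipl-3* (SE 0.93, adjusted p = 0.838). Without *trxr-2* replicate 1 the same values were 0.13, -0.32 and -0.76, with 95% intervals of -1.78 to 2.03, -1.81 to 1.17 and -2.12 to 0.60. Leaving out wild-type replicate 2 instead gave *lipl-1* its highest value in this comparison, 2.49. The double mutant against *trxr-2* turned on the same library: *lipl-3* stood at -2.35 (SE 0.97, adjusted p = 0.187, edgeR) with it and at 0.18 (95% interval -1.21 to 1.56, adjusted p = 0.882) without it. Against wild type, the double mutant gave 1.07 for *lipl-1* (95% interval -0.97 to 3.11), 0.39 for *lipl-2* (-1.69 to 2.47) and -0.58 for *lipl-3* (-2.74 to 1.58). Single libraries moved the value of *lipl-1*, which was 0.50 without double mutant replicate 2 and 1.80 without wild-type replicate 2. *gsr-1a* against wild type gave 0.98, 0.38 and 0.33 for the same genes, none of which passed (adjusted p = 0.735, 0.896 and 0.910, edgeR). For *lipl-1* in that comparison the value was 0.56 without wild-type replicate 1 and 1.71 without wild-type replicate 2. *lipl-1* was higher in *gsr-1a* than in the wild-type library of the same number in 3 of 3 pairs, as were 19.3% of all genes tested, and the replicate block gave 1.04 (SE 0.97, adjusted p = 0.627, edgeR). At this depth and spread, the data do not tell apart changes of the sizes inside these intervals.

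**Figure D2:**
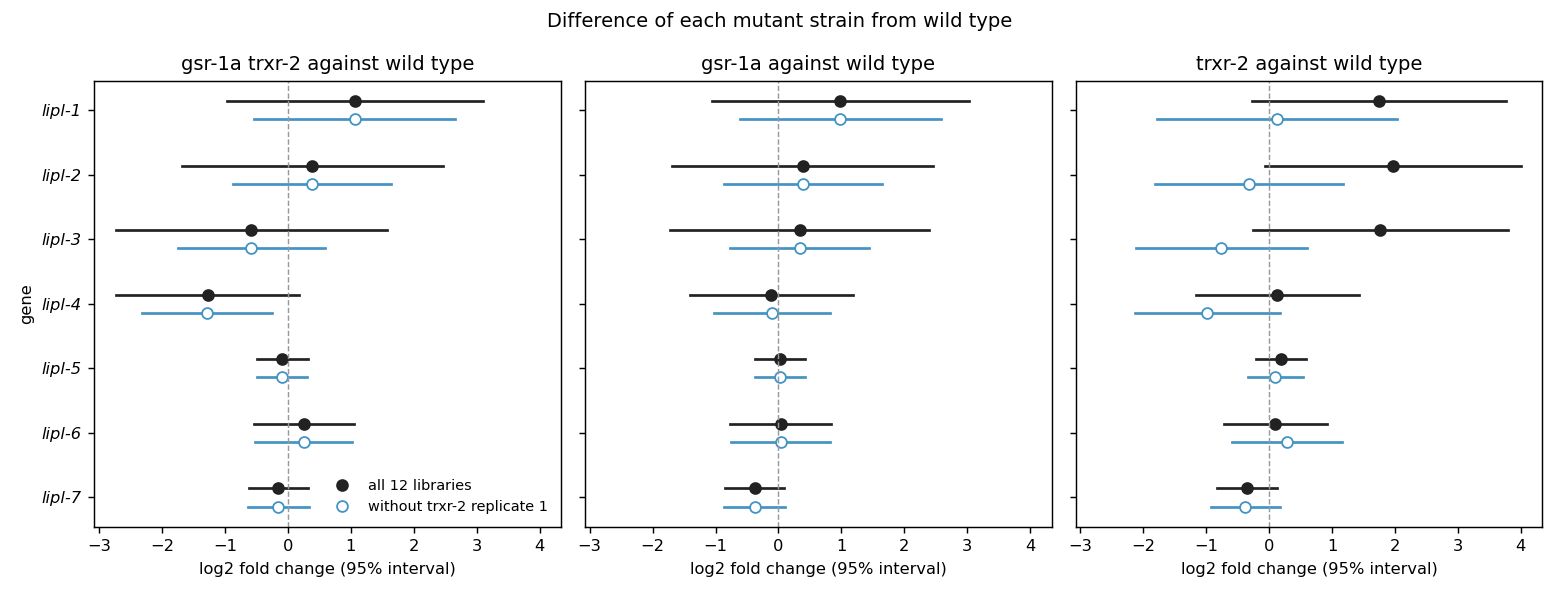
Log2 fold change of each *lipl* gene in each mutant strain against wild type, with its 95% interval, with all 12 libraries (filled) and without *trxr-2* replicate 1 (open). The intervals with all libraries all include 0, and in *trxr-2* against wild type the values of *lipl-2* and *lipl-3* move from 1.97 and 1.77 to -0.32 and -0.76 when that library is left out.

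*lipl-4* was the member with the lowest adjusted p in the double mutant against wild type. It had 0.132, 0.379 and 0.459 CPM in the double mutant, 0.522, 0.637 and 1.01 CPM in *gsr-1a*, 1.88, 0.460 and 0.341 CPM in *trxr-2*, and 0.943, 0.490 and 0.974 CPM in wild type. These levels rest on totals of 16 counts for the double mutant (2, 7 and 7), 37 counts for *gsr-1a*, 37 counts for *trxr-2* and 42 counts for wild type. All double mutant values were below all values of wild type and of *gsr-1a*, the nearest being 0.459 in the double mutant and 0.490 in wild type. Of all genes tested, 21.6% were likewise below every wild-type library in the double mutant and 15% below every *gsr-1a* library. The lowest value, 0.132, lies under the 0.197 CPM that 3 counts come to in that library. The log2 fold change was -1.28 (SE 0.66, 95% interval -2.73 to 0.18) against wild type and -1.16 (SE 0.67, 95% interval -2.63 to 0.31) against *gsr-1a*. Neither passed the test (adjusted p = 0.203 and 0.359, edgeR, over all genes). Without *trxr-2* replicate 1, which enters the shared estimate of the spread, the value against wild type was again -1.28, with a 95% interval of -2.31 to -0.25 and an adjusted p of 0.0722. In *trxr-2* against wild type, *lipl-4* gave 0.13 with all libraries and -0.98 (95% interval -2.14 to 0.18) without *trxr-2* replicate 1.

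*lipl-6* had 0.921, 1.19 and 0.721 CPM in the double mutant, 0.522, 1.22 and 0.639 CPM in *gsr-1a*, 0.601, 1.05 and 0.887 CPM in *trxr-2*, and 0.725, 0.926 and 0.731 CPM in wild type. Its libraries overlapped between all strains, and the double mutant against wild type gave a log2 fold change of 0.25 (SE 0.37, adjusted p = 0.661, edgeR). *lipl-8* had 0 counts in all 12 libraries, which allows a level of up to 0.146 to 0.261 CPM in a single library and up to 0.0155 CPM over all 12 (3 counts, counting error only).

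Since *trxr-2* replicate 1 carried the highest level of 5 of the 7 *lipl* genes detected, it was described against the other libraries. For *lipl-5* it was level with *gsr-1a* replicate 1. Over all genes tested, 13.1% had their highest level there, a share that ran over 4.51% to 20% in the 12 libraries. Of the 14997 tested genes with counts in the other 2 *trxr-2* libraries, 0.827% were over 5 times as high in it, and the median ratio was 1.12. *lipl-1*, *lipl-2* and *lipl-3* were at 7.40, 12.9 and 15.5 times the mean of the other *trxr-2* libraries and *lipl-4* at 4.69 times, while *lipl-5* was at 1.20, *lipl-7* at 1.05 and *lipl-6* at 0.621 times. The excess lay in 4 members and not in the abundant *lipl-5* and *lipl-7*.

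In the same library, 5 of 8 genes listed as responsive to fasting had their highest level of the 12. The 13.1% of all genes counts only genes tested, and *fil-1* and *fil-2*, both among the 5, were not tested. The same was so for 4 of 9 fatty acid binding protein genes (*lbp-1*, *lbp-4*, *lbp-5* and *lbp-7*, at 1.63 to 2.16 times the mean of the other *trxr-2* libraries). It was also so for 6 of 20 other lipase genes with counts, of which 13 were tested, the same *fil-1* and *fil-2* being among the 6. Among other lysosomal genes it held for 6 of 34, among autophagy genes for 3 of 26 and among V-ATPase genes for 0 of 21. *fil-1*, a lipase named for its induction by fasting, had 5.34 CPM there, against a mean of 0.268 in the other *trxr-2* libraries. *acs-2*, an acyl-CoA synthetase that feeds fatty acids into mitochondrial beta-oxidation, had 312 CPM, against 107. *hacd-1*, a hydroxyacyl-CoA dehydrogenase, had 197 CPM, against 113. *ech-9*, an enoyl-CoA hydratase, had 3.98 CPM, against 0.436, but reached 3.68 CPM in a double mutant library. The fifth, *fil-2*, rested on 3 counts there (0.226 CPM). *icl-1*, of the glyoxylate cycle, was not highest in it, with 602 CPM, against 624 CPM in *trxr-2* replicate 2 and up to 781 CPM in the double mutant. The desaturase genes *fat-5* and *fat-7* were at 0.737 and 0.644 times the mean of the other *trxr-2* libraries. Of the 9 regulators and partners listed, 1 was highest there, *nhr-80*. *mxl-3* was at 1.04 and *hlh-30* at 0.907 times the mean of the other *trxr-2* libraries. Some marker sums were also lower there: the 5 oocyte markers summed to 2150 CPM, against 4728 and 4723 in *trxr-2* replicates 2 and 3. The 4 muscle markers summed to 1291, against 3502 and 2122, and the 6 intestine markers to 582, against 905 and 741. In wild-type replicate 1 these sums were lower still, at 1345, 176 and 545 CPM. The intestine markers did not share a direction in *trxr-2* replicate 1. *act-5* and *pept-1* were at 0.624 and 0.738 times the mean of the other *trxr-2* libraries. *ifb-2*, *ges-1*, *elt-7* and *elt-2* were at 0.934, 1.01, 1.15 and 1.22 times that mean. The hypodermis markers summed to 1803 CPM in *trxr-2* replicate 1, against 1982 and 1948. Sperm (20.4 CPM, against 17.7 and 13.2) and neuron markers (179 CPM, against 172 and 173) were not lower there. None of the oocyte, muscle or intestine markers was at 0. The part of food, age at harvest or tissue makeup in the *lipl* levels of this library was not tested.

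**Figure D3:**
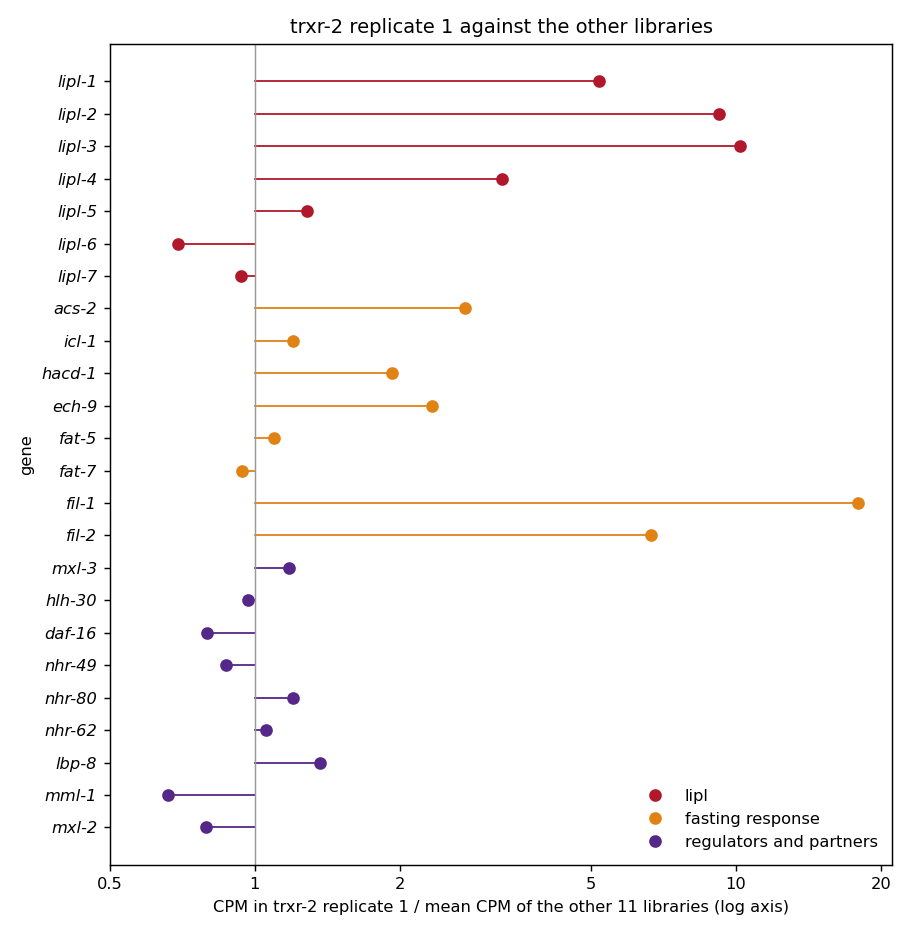
CPM in *trxr-2* replicate 1 divided by the mean CPM of the other 11 libraries, on a log axis, for the *lipl* genes detected, the listed fasting response genes and the listed regulators and partners. *lipl-3* stands at 10.2 and *fil-1* at 17.9 times the other libraries, while *mxl-3* stands at 1.18 and *hlh-30* at 0.970.

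Across the 12 libraries, *lipl-2* and *lipl-3* were each among the 2 genes whose levels were most like the other's (Pearson r = 0.93 on log2 CPM, or 0.81 without *trxr-2* replicate 1). The other genes closest to them were F43C11.7 for *lipl-2* (r = 0.93, or 0.79 without that library) and C35C5.8 for *lipl-3* (r = 0.94, or 0.80). Both were also highest in *trxr-2* replicate 1, at 31.1 and 28.6 CPM, against at most 13.2 and 7.76 CPM elsewhere. *lipl-1* was most like *spi-1* (r = 0.91) and *asah-1*, an acid ceramidase gene of the lysosomal list (r = 0.88, or 0.81 without that library). *lipl-4* was most like W02D7.8 and AH9.1 (r = 0.88 for both), at levels of about 1 CPM where counting error is large. *lipl-5* was most like *rps-19*, a ribosomal protein gene, and *prdx-6*, a peroxiredoxin gene (r = 0.90 for both). *lipl-7* was most like *snx-27*, a sorting nexin gene (r = 0.93), and *npr-17*, a neuropeptide receptor gene (r = 0.92), and *lipl-6* like *egl-20*, a Wnt gene (r = 0.81), and *lyst-1* (r = 0.77). *lipl-5* and *lipl-7* ran in opposite directions across libraries (r = -0.70, or -0.77 without *trxr-2* replicate 1). These values describe 12 libraries that share strains and possibly harvests, which the labels do not name, and were chosen as the highest among all genes tested.

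The genes around the lysosomal lipases changed in the double mutant only in part. Of the 9 regulators and partners, 0 were called against wild type by edgeR. By adjusted p the leading ones were *mxl-2*, the Max-like partner of MML-1, with a log2 fold change of 0.37 (SE 0.14, adjusted p = 0.0918), *nhr-80* with 0.30 (SE 0.15, adjusted p = 0.181) and *hlh-30* with 0.47 (SE 0.24, adjusted p = 0.188). *hlh-30* averaged 75.4 ± 6.36 CPM in the double mutant, 61.3 ± 1.64 CPM in *gsr-1a*, 67.1 ± 7.81 CPM in *trxr-2* and 54.4 ± 21.3 CPM in wild type (SD, n = 3 each), the wild-type spread coming from 30.2 CPM in replicate 1. *mxl-3* averaged 81.5 ± 3.14 CPM in the double mutant, 95.6 ± 11.4 CPM in *gsr-1a*, 107 ± 9.51 CPM in *trxr-2* and 93.7 ± 1.98 CPM in wild type. It was lower in the double mutant than in *trxr-2* (-0.39, SE 0.11, adjusted p = 0.0390, edgeR), and gave -0.20 against wild type (adjusted p = 0.227). *lbp-8* had 1.06 ± 0.318 CPM in the double mutant and 1.57 ± 0.216 in wild type, a difference that did not pass (-0.55, SE 0.32, adjusted p = 0.255).

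Of 34 other lysosomal genes tested, 3 were higher and 3 lower in the double mutant than in wild type, or 17.6%, close to the 18.8% of all genes. *asp-1*, an aspartic protease, rose by 1.35 on the log2 scale and *ncr-2*, a relative of the Niemann-Pick C cholesterol transporter, by 1.56, while *nuc-1*, the lysosomal DNase, fell by 1.63 (adjusted p = 0.00337, 0.00201 and 0.000214, edgeR). Of 21 V-ATPase subunit genes, which acidify the lysosome, only *vha-6*, a subunit of the apical intestine, was called, with a rise of 1.18, and *vha-18* (-0.29, adjusted p = 0.0590) and *vha-20* (0.31, adjusted p = 0.152) came next. Of 26 autophagy genes, *sqst-1*, the p62 receptor, was higher by 0.99, and *epg-2* and *atg-16.1* fell by 0.87 and 0.62, together 11.5%. Of 13 other lipase and lipid droplet genes tested, *lips-15* was higher by 0.82 and *lips-5* fell by 1.06 (15.4%), and *lid-1*, a cofactor of the lipase ATGL-1, gave -0.28 (adjusted p = 0.118). None of the 9 fatty acid binding protein genes was called, *lbp-1* (-0.47, adjusted p = 0.153), *lbp-8* and *lbp-6* (0.40, adjusted p = 0.268) coming first. Of 6 fasting response genes tested, the desaturase genes *fat-7* and *fat-5* fell by 2.02 and 1.87, and *icl-1* gave 1.20 (adjusted p = 0.0637). No gene of these lists was called in *gsr-1a* or in *trxr-2* against wild type.

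The libraries numbered 1 bore on these counts and not on that of the *lipl* genes, which stayed at 0 without them. Without all 4 of them, 25.4% of all genes were called in the double mutant against wild type, with 1 higher and 6 lower of 26 autophagy genes and 3 higher and 1 lower of 6 fasting response genes. There *ech-9* stood at 2.05 (adjusted p = 0.00786), *icl-1* at 0.71 (adjusted p = 0.0195) and *acs-2* at 0.48 (adjusted p = 0.0396, edgeR), and *fat-5* at -1.66 no longer passed (adjusted p = 0.0655). Of the other lists' genes, *lbp-1*, *vha-18* and the nuclear receptor gene *nhr-49* then fell by 0.50, 0.23 and 0.18, and *lbp-6* was higher by 0.54. Without wild-type replicate 1 alone, 13.6% of all genes were called in the double mutant against wild type. There *cln-3.1*, 1 of the 3 lysosomal genes that were lower, gave -0.82, against -0.88 with all libraries. It no longer passed (adjusted p = 0.0641, edgeR), while without all 4 libraries numbered 1 it gave -0.58 and passed (adjusted p = 0.0428). Without *trxr-2* replicate 1, the difference of *mxl-3* between the double mutant and *trxr-2* was -0.38 and no longer passed (adjusted p = 0.0686, edgeR, 12.9% of all genes called). Without all 4 libraries numbered 1 it was -0.39 and passed (adjusted p = 0.0146, 25.3% of all genes called). Against wild type, 23.1% of all genes were called in the double mutant without *trxr-2* replicate 1. There *lbp-1* and *hacd-1* were lower by 0.48 and 0.49 on the log2 scale (adjusted p = 0.0190 and 0.0350, edgeR). There *vha-18* was also lower by 0.30 (adjusted p = 0.0480) and the lipase gene *lips-2*, not tested with all libraries, was higher by 2.67 (adjusted p = 0.0479). The list counts without these libraries were added after the data had been seen.

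**Figure D4:**
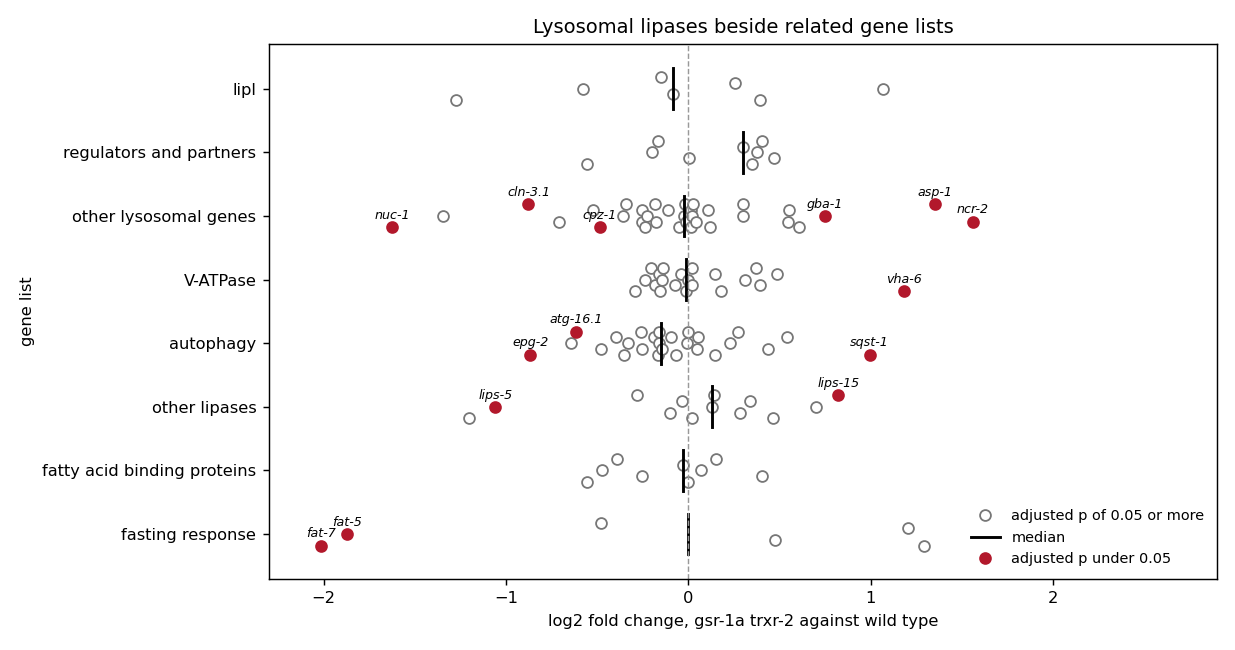
Log2 fold change in the double mutant against wild type of each gene tested in the *lipl* family and 7 related lists; filled points passed at an adjusted p under 0.05 and bars mark the list medians. No *lipl* gene passed, while calls fell on both sides of 0 among the other lysosomal, autophagy and other lipase genes and above 0 in the V-ATPase list. In the fasting response list the calls were the desaturase genes *fat-7* and *fat-5*, below 0. The other genes of that list lay on both sides of 0 and did not pass.

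Marker sums of several tissues differed between strains in these whole-worm libraries. Fewer cells of a type and less RNA per cell cannot be told apart here. The 6 intestine markers, none at 0 in any library, summed to 757 to 929 CPM in the double mutant and 545 to 747 CPM in wild type, with 2 of 6 called higher (*ges-1* by 0.96 and *ifb-2* by 1.02 on the log2 scale), where 12.5% of all genes tested were called higher. The other intestine markers did not pass and did not share a direction: *act-5* gave 0.37, the transcription factor genes *elt-2* and *elt-7* gave 0.07 and -0.58 (adjusted p = 0.816 and 0.0687, edgeR) and *pept-1*, a peptide transporter gene, gave -0.25. The 4 muscle markers summed to 2828 to 3000 CPM in the double mutant and 176 to 2071 CPM in wild type, with 0 of 4 called. The 4 hypodermis markers summed to 1831 to 1971 CPM in the double mutant and 1002 to 1492 CPM in wild type. They summed to 1437 to 2808 CPM in *gsr-1a* and 1803 to 1982 CPM in *trxr-2*. Most of each sum was *col-19*, with means of 1894 CPM in the double mutant and 1289 CPM in wild type. It did not pass (0.56, adjusted p = 0.155, edgeR). Of the others, *rol-6* was called higher (1.73), *lon-3* gave 1.65 (adjusted p = 0.0839) and *dpy-7* gave -1.05 (adjusted p = 0.0563). The 6 sperm markers summed to 48.0 to 92.3 CPM in the double mutant and 10.9 to 23.3 CPM in wild type, with 4 of the 4 tested called higher and at most 1 at 0 in a wild-type library. The low end of wild type was replicate 1 in each of these sums. Wild-type replicates 2 and 3 gave 747 and 660 CPM for intestine and 1635 and 2071 CPM for muscle. They gave 1492 and 1435 CPM for hypodermis and 18.5 and 23.3 CPM for sperm. Yolk sums (34535 to 40968 CPM in the double mutant, 3002 to 46121 CPM in wild type) overlapped, with 0 of 6 called. So did neuron sums (182 to 201 and 171 to 183 CPM), with 1 of 4 called. Oocyte sums were 3805 to 3966 CPM in the double mutant and 1345 to 3775 CPM in wild type, with 0 of 5 called. The part of these tissues in the *lipl* levels was not tested.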

How the data were processed

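RNA of whole worms was sequenced in 12 libraries of 4 strains, grouped by the labels. The authors deposited raw counts per gene. The submitters' processing notes name FastQC, HISAT2 and SAMtools for quality control, alignment to WBcel235 and file handling, and the file headers show that featureCounts 2.0.0 counted stranded read pairs over whole gene spans of Ensembl release 97. Pairs within introns therefore count, and exon lengths came from release 115 of the same build.

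From these counts, TMM factors, filterByExpr grouped by strain (15004 genes kept) and the quasi-likelihood test were run in edgeR 4.0.16 (R 4.3.3) with 1 mean per strain, 8 residual degrees of freedom and Benjamini-Hochberg adjustment over all genes tested, at 0.05. The 6 comparisons were also run with DESeq2 1.42.0 and the alternatives of the closing section. The script was tested on simulated data. Intervals are 95%.

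Correlations of same-numbered deviations were 0.214, 0.130 and 0.231 between wild type and *gsr-1a* and 0.541, 0.341 and 0.266 between wild type and *trxr-2*. Wild-type replicate 3 correlated more with *trxr-2* replicate 2 (0.379) than with replicate 3. In the other strain pairs same-numbered values ranged from -0.0843 to 0.268, with a value below 0 in each pair. Any such pairing is read from the data and not from the labels.

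The members and gene lists were chosen with earlier results of these data known. Beside the members and the mutated genes, the text names the 3 genes of each list with the smallest adjusted p in the double mutant against wild type and, for each member tested, the 2 genes most like it by Pearson r of log2 CPM (prior count 2). The genes named for *trxr-2* replicate 1, *mxl-3*, *lbp-8* and the tissue markers were chosen from the lists after their values were seen. No sequences were used here.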

Additional observations from a re-analysis of the deposited data

How the results depend on the processing

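Counts of *lipl* genes called stayed at 0 in all 131 alternative fits over the 6 comparisons, and the lowest adjusted p of any member in any fit was 0.0722 (*lipl-4*, double mutant against wild type, without *trxr-2* replicate 1). With the replicate number as a block the count was again 0 in every comparison, so the block changed no *lipl* call. Over all genes the block called 3578 in the double mutant against wild type in place of 2824. Over all strain pairs, 9 of 18 same-numbered pairs had correlations over 0.1, and in 17 of 36 cases a library correlated best with the library of its own number in the other strain.

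Signs of differences that did not pass the test turned round as follows, and the cause was not tested. Without all 4 libraries of the number 1, log2 fold changes in *trxr-2* against wild type were -0.26, -0.23, -0.78 and -0.84 for *lipl-1* to *lipl-4*. In the double mutant against *trxr-2* they were 1.09, 0.95, 0.46, 0.013 and -0.043 for *lipl-1*, *lipl-2*, *lipl-3*, *lipl-4* and *lipl-6*. In the double mutant against *gsr-1a* they were -0.11, -0.097 and 0.055 for *lipl-1*, *lipl-2* and *lipl-5*, in *gsr-1a* against wild type 0.15 and -0.092 for *lipl-4* and *lipl-5*, and for the interaction 0.15, 0.13 and -0.20 for *lipl-1*, *lipl-2* and *lipl-6*. The replicate block gave -0.012 and -0.14 for *lipl-1* and *lipl-2* in the double mutant against *gsr-1a* and -0.016 for *lipl-6* in *gsr-1a* against wild type. Upper quartile factors gave -0.024 for *lipl-5* in *gsr-1a* against wild type. For *lipl-2* in the double mutant against *gsr-1a*, which lay at 0.0068, RLE size factors gave -0.00522, no filter -0.000698 and a filter of over 1 CPM in 3 libraries -0.00405.

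Leaving out single libraries gave these ranges where a sign turned. In the double mutant against wild type they were -0.32 to 0.71 for *lipl-2* and -0.23 to 0.0056 for *lipl-5*. In *gsr-1a* against wild type they were -0.045 to 0.78 for *lipl-2*, -0.18 to 0.72 for *lipl-3*, -0.44 to 0.070 for *lipl-4*, -0.17 to 0.17 for *lipl-5* and -0.43 to 0.23 for *lipl-6*. In *trxr-2* against wild type they were -0.32 to 2.48 for *lipl-2*, -0.76 to 2.27 for *lipl-3*, -0.98 to 0.52 for *lipl-4* and -0.084 to 0.28 for *lipl-6*. In the double mutant against *gsr-1a* they were -0.48 to 0.51 for *lipl-1*, -0.70 to 0.43 for *lipl-2*, -0.26 to 0.082 for *lipl-5* and -0.0081 to 0.45 for *lipl-7*. In the double mutant against *trxr-2* they were -1.25 to 0.94 for *lipl-1*, -2.29 to 0.71 for *lipl-2*, -2.86 to 0.18 for *lipl-3* and -0.057 to 0.34 for *lipl-6*. For the interaction they were -2.68 to 0.32 for *lipl-2* and -0.096 to 0.58 for *lipl-6*. Without a turn of sign, some values moved by over 1.5 times in fold from the value with all libraries. *lipl-1* did so in the double mutant against wild type (0.50 to 1.80) and in *gsr-1a* against wild type (0.56 to 1.71). It also did so in *trxr-2* against wild type (0.13 to 2.49) and for the interaction (-2.40 to -0.045). *lipl-3* did so for the interaction (-3.19 to -0.16). *lipl-4* did so in the double mutant against *trxr-2* (-1.80 to -0.30) and for the interaction (-1.69 to -0.19). Against wild type, *lipl-4* in the double mutant moved by less (-1.57 to -0.91). Depth bears on *lipl-4* and *lipl-6*, with 132 and 167 counts over the 12 libraries, and on *lipl-8*, with 0.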
